A study of Mus musculus with 8 samples.

Results

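Insulin-like growth factor (IGF) signalling genes were read out in stem cells of the hair follicle, which sit in its bulge and regrow the hair shaft in each cycle. The 10 genes, of 28792 symbols in the expression tables, were taken by name, with the levels of all 4 libraries already known. They are the binding proteins Igfbp2, Igfbp3, Igfbp4, Igfbp5, Igfbp6 and Igfbp7, the receptors Igf1r, Igf2r and Insr, and the receptor substrate Irs1. Igfbp6 was chosen by its differences in FPKM between these same libraries, so those differences are given as a description. IGF1 and IGF2 are small secreted ligands that act through the tyrosine kinase IGF1R and the related insulin receptor. Secreted IGF-binding proteins (IGFBPs) hold the ligands outside the cell with high affinity, and can limit their access to the receptor or extend their life. In skin, IGF1 made by the dermis is known to favour hair growth.

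RNA was sequenced from cells sorted from mouse back skin, with 1 library in each of 4 groups. The cKO library came from K15CrePGR; Ctnnb1fl/fl; Rosa-YFPfl/stop/fl mice, in which both copies of the β-catenin gene are floxed. The Het library came from K15CrePGR; Ctnnb1+/fl; Rosa-YFPfl/stop/fl mice, with 1 floxed copy. Both were from females of day 99 on a C57BL6/129Sv background. In both, Cre is fused to a progesterone receptor domain and driven by keratin 15 sequences, so deletion is limited to cells in which it was active. The LacZ-positive and LacZ-negative libraries came from bulge cells of male C57BL6 mice of day 24, sorted by β-galactosidase activity as follicles left rest for growth. Both carry the same Axin2LacZ/+ genotype, in which the reporter replaces 1 copy of the Wnt target gene Axin2. Pooling of mice is not stated, the labels give both rest and the onset of growth as the stage of the cKO and Het cells, and the 4 chromatin samples of the series were not analysed here. Ages, sex, strain and genotype all differ between the pairs and cannot be told apart there, so differences were taken only within a pair.

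Values are FPKM, fragments divided by transcript length and by the library's total, so that genes can be set side by side. Depth behind each value is unknown. With 1 library per group no difference has a replicate check or a test. A difference is the log2 ratio of FPKM + 1, and a gene is counted as 2-fold or more apart when that reaches 1 or -1, among genes with at least 1 FPKM in a library of the pair. In bulk RNA, fewer cells of a type and less RNA per cell cannot be told apart. Bulge genes were abundant: Krt5, a basal keratin, stood between 5272 and 8690 FPKM and Cd34, a bulge surface marker, between 223 and 752 FPKM. Krt15 was listed at 0 in the LacZ-negative library and at 5951 FPKM or more elsewhere, and an exact 0 may be an estimate that failed. Ctnnb1 itself stood at 370 FPKM in the cKO and 251 FPKM in the Het library, which does not resolve the floxed part, so the libraries are called by their labels. Axin2, the Wnt target, stood at 2.12 FPKM in the cKO and 16.3 FPKM in the Het library, and at 19.0 FPKM in LacZ-positive and 9.10 FPKM in LacZ-negative cells.

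The IGFBP genes lie in several places of the genome. By the coordinates of the tables, taken as mm9, Igfbp6 (ENSMUSG00000023046) is on chromosome 15 at 101974792 to 101979942. Igfbp4 (ENSMUSG00000017493) is on chromosome 11 at 98902557 to 98913969, and Igf1r (ENSMUSG00000005533) is on chromosome 7 at 75097712 to 75371484. Igfbp3 lies at 7106088 to 7113926 on chromosome 11, with Igfbp1 only 3538 bases away. Igfbp5 (chromosome 1, 72904505 to 72921458) and Igfbp2 are neighbours too, with 5456 bases between their intervals. The 6 members Igfbp2, Igfbp3, Igfbp4, Igfbp5, Igfbp6 and Igf1r are alone in their table interval. Igf2r shares its interval with 5 other entries, among them the antisense transcript Airn, so its reads may include theirs. Igfbp7 shares with 2 entries, Polr2b among them, and Insr and Irs1 share with 1 predicted gene each.

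The sequences before 3 start sites are shown because Igfbp6 and Igfbp4 had the widest differences of the 10 genes and Igf1r alone held a TCF/LEF-type match. They are the 250 bases before the RefSeq start in GRCm38.p6, at chr15:102143936-102144185 (plus strand), chr11:99040994-99041243 (plus strand) and chr7:67952007-67952256 (plus strand). Capitals mark matches on either strand to CTTTGA or CTTTGT (TCF/LEF-type), TGTTTAC (forkhead-type), TATAAA and GGGCGG.
Igfbp6: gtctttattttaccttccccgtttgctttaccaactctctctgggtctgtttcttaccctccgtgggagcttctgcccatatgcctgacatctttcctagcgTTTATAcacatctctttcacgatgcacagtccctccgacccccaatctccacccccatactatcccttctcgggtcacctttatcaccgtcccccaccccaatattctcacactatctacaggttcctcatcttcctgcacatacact
Igfbp4: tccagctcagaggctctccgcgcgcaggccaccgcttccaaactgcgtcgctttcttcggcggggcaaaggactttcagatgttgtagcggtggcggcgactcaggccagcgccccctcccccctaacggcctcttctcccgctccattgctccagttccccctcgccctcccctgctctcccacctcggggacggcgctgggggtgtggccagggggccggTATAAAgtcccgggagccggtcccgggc
Igf1r: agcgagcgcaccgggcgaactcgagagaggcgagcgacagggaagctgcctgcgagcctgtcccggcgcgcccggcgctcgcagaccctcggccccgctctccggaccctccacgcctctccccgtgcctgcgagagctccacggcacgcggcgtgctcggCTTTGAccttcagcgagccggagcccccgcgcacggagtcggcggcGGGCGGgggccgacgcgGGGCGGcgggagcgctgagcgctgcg
Igfbp6 holds TTTATA, the reverse complement of TATAAA, starting 148 bases before the start, and Igfbp4 holds TATAAA 28 bases before it. Igf1r holds CTTTGA starting 89 bases before the start and GGGCGG at 2 places. The window of Igfbp6 has 7 CG dinucleotides and 49.6% G or C, near the medians of 6 and 52.4% over all 32851 windows. Those of the other 8 members found have 10 to 42 CG dinucleotides. Promoters were found for 9 of the 10 members, with a pair for Igfbp2, and Insr had no entry. No window of an IGFBP member held a TCF/LEF-type or forkhead-type match. CTTTGA occurs in 13.8% of all windows, CTTTGT in 16.5% and the forkhead-type TGTTTAC in 3.17%. One or both TCF/LEF-type forms occur in 27.6%, so nothing is read from their absence in so few windows. TATAAA occurs in 12.4% and GGGCGG, whose matches can overlap one another, in 32.7%. A match is a run of letters and not a shown binding site.

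Binding proteins made up nearly all of the IGF axis RNA. The 6 IGFBP genes summed to 417 FPKM in the cKO, 314 FPKM in the Het, 536 FPKM in the LacZ-positive and 1140 FPKM in the LacZ-negative library. The 3 receptors and Irs1 together gave 22.0 FPKM in the cKO, 24.6 FPKM in the Het, 18.4 FPKM in the LacZ-positive and 17.8 FPKM in the LacZ-negative library. Ligand RNA was close to nothing: Igf1 reached at most 0.0562 FPKM and Igf2 at most 0.547 FPKM, in LacZ-negative cells. Ins1 was at 0.0274 FPKM in the Het library and listed at 0 in the other libraries, and Ins2 was listed at 0 in all 4. These sorted cells thus held RNA for carriers and receptors, and none of the 4 ligand genes reached 1 FPKM.

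**Figure D1:**
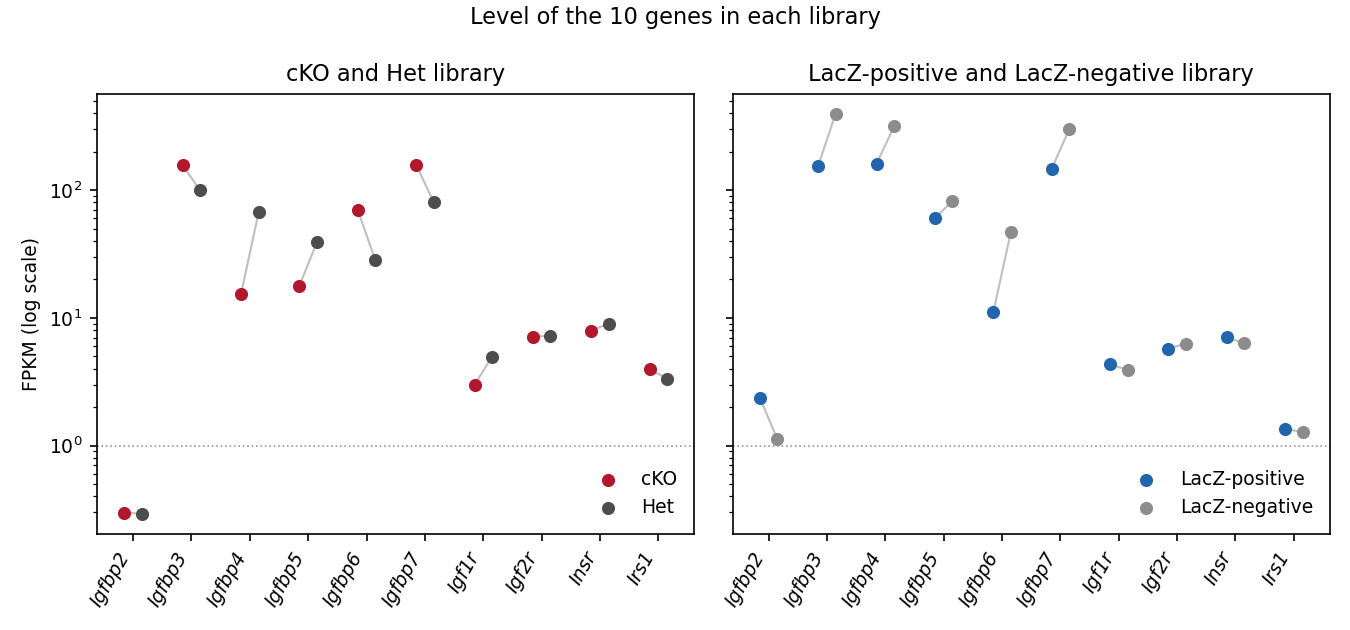
FPKM of the 10 genes on a log axis, 1 point per library, with cKO left of Het and LacZ-positive left of LacZ-negative; grey lines join the libraries of a pair and the dotted line is 1 FPKM. Igfbp3 to Igfbp7 lie above 10 FPKM in all 4 libraries, and the receptors and Irs1 lie between 1.28 and 9.01 FPKM.

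In the first pair the question is how stem cells with both β-catenin copies floxed compare with those with 1. The binding proteins went apart: Igfbp6, Igfbp7 and Igfbp3 were higher in the cKO library, and Igfbp4 and Igfbp5 were lower. Of the 10 genes, 9 reached 1 FPKM, 1 of them was higher and 2 were lower by 2-fold or more. Over all 13014 genes at that level, 4.09% differed by as much in either direction, 1.8% being higher and 2.29% lower. Among the 9396 genes with at least 5 FPKM in both libraries the share was 1.54%. Since the genes were picked with these values known, nothing is read from the count.

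Igfbp6, a binding protein that prefers IGF2 over IGF1, stood at 69.9 FPKM in the cKO and 28.2 FPKM in the Het library. That is 2.48-fold higher and a log2 difference of 1.28, the 170th highest of 13014 genes. Igfbp7, which binds IGFs only weakly and is also known as a matrix-associated protein, stood at 158 FPKM in the cKO and 80.3 FPKM in the Het library. Its log2 difference of 0.96 lay just inside the 2-fold line. Igfbp3, the main IGF carrier of serum, stood at 156 FPKM in the cKO and 99.3 FPKM in the Het library, with a log2 difference of 0.65. Igfbp6 was thus the only member past the line upward, and all 3 lay above the upper bound of 0.61 that holds the central 95% of the better expressed genes.

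Igfbp4, a binding protein that in other systems can also block canonical Wnt receptors, stood at 15.4 FPKM in the cKO and 66.9 FPKM in the Het library. It was 4.33-fold lower, with a log2 difference of -2.05, the 117th lowest of 13014. Igfbp5, a binding protein that attaches to extracellular matrix, stood at 17.9 FPKM in the cKO and 39.0 FPKM in the Het library. Its log2 difference was -1.09, or -0.95 with a pseudocount of 5, which is inside the line. For both genes the cKO value is the lowest of the 4 libraries, though age, sex, strain and genotype differ between the pairs. Igfbp2, a binding protein with an integrin-binding motif, stayed under the minimum at 0.299 and 0.293 FPKM in the cKO and Het libraries. Its neighbour Igfbp5 was thus far more abundant in the same cells.

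The receptors and Irs1 stayed inside the 2-fold line. Igf1r stood at 2.99 FPKM in the cKO and 4.98 FPKM in the Het library, a log2 difference of -0.58 and the widest of the 4 non-IGFBP members. That is below the lower bound of -0.50 that holds the central 95% of genes with at least 5 FPKM in both libraries. Igf1r itself is under 5 FPKM and not in that set. At these low levels its difference depends on the pseudocount, and is -0.32 with a pseudocount of 5. Insr stood at 7.95 FPKM in the cKO and 9.01 FPKM in the Het library (-0.16). Igf2r, the mannose 6-phosphate receptor that clears IGF2 and sorts lysosomal enzymes, stood at 7.10 FPKM in the cKO and 7.24 FPKM in the Het library (-0.02). Irs1, the docking protein that passes receptor signals to phosphoinositide 3-kinase, stood at 3.94 FPKM in the cKO and 3.35 FPKM in the Het library (0.19). Insr was more abundant than Igf1r in every library, by 2.66-fold in the cKO, 1.81-fold in the Het, 1.63-fold in the LacZ-positive and 1.61-fold in the LacZ-negative library. For these 10 genes the authors' deposited table gives log2 ratios without a pseudocount, such as 1.31 for Igfbp6 and -2.11 for Igfbp4.

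**Figure D2:**
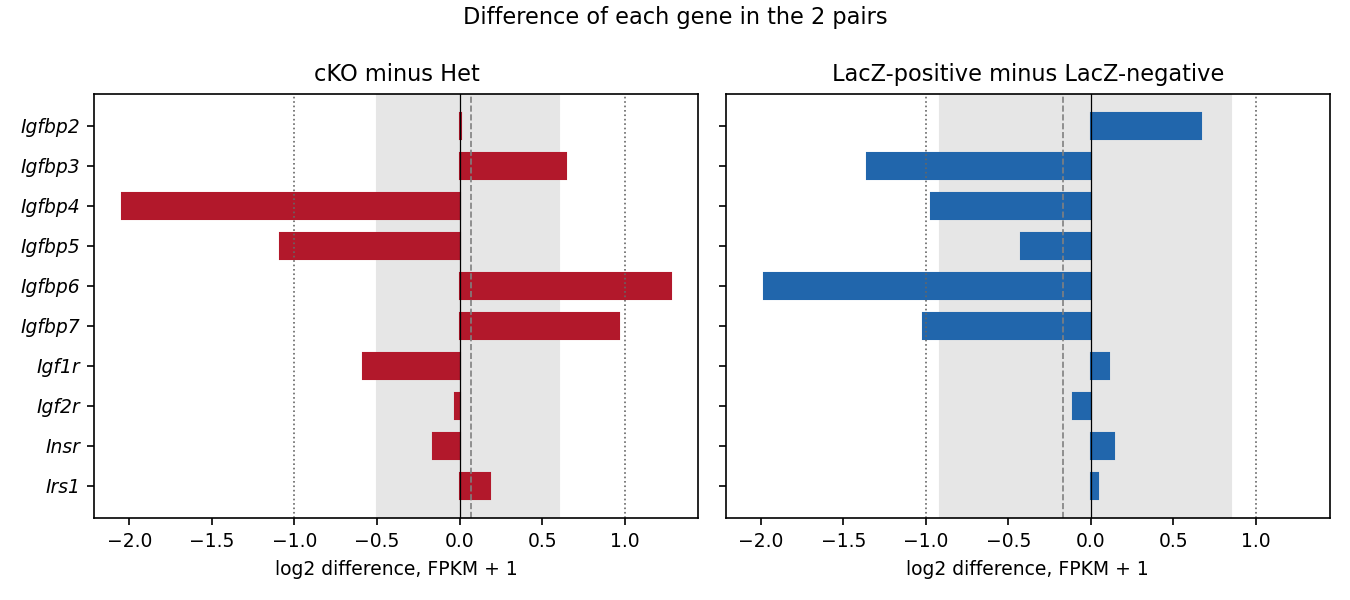
Log2 difference of FPKM + 1 for each gene, cKO minus Het on the left and LacZ-positive minus LacZ-negative on the right. Grey bands hold the central 95% of genes with at least 5 FPKM in both libraries, dashed lines their median and dotted lines the 2-fold lines; the bar of Igfbp2 on the left, at 0.01, is too thin to see, and both its libraries are under 1 FPKM. Igfbp4 reaches -2.05 on the left and Igfbp6 -1.98 on the right.

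In the second pair the question is how bulge cells with Axin2 reporter activity compare with those without it. All 5 abundant binding proteins were lower in LacZ-positive cells, and the receptors and Irs1 lay within 0.14 of 0 on the log2 scale. All 10 genes reached 1 FPKM, 0 were higher and 3 were lower by 2-fold or more: Igfbp6, Igfbp3 and Igfbp7. Over all 13283 genes at that level 7.27% differed by as much, 4.67% being higher and 2.6% lower, and among the 9252 genes with at least 5 FPKM in both libraries the share was 3.65%. Those 9252 genes had a median log2 difference of -0.17, so the distance from that median is also given. Taken from that median, the 2-fold line was passed upward by 804 genes and downward by 224, against 620 upward and 346 downward without centring.

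Igfbp6 stood at 11.0 FPKM in LacZ-positive and 46.6 FPKM in LacZ-negative cells, 4.22-fold lower. The log2 difference was -1.98, or -1.81 relative to all genes, the 77th lowest of 13283. Igfbp3 stood at 155 FPKM in LacZ-positive and 397 FPKM in LacZ-negative cells, with a log2 difference of -1.35 (-1.18 relative to all genes). Igfbp7 stood at 147 FPKM in LacZ-positive and 298 FPKM in LacZ-negative cells, at -1.02, which falls inside the line relative to all genes (-0.85). Igfbp6, Igfbp3 and Igfbp7 thus lay on the higher side in the cKO library and on the lower side in LacZ-positive cells, but Igfbp6 alone of them was past the line in both pairs.

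Igfbp4 stood at 161 FPKM in LacZ-positive and 315 FPKM in LacZ-negative cells, a log2 difference of -0.97 (-0.80 relative to all genes). Igfbp5 stood at 60.5 FPKM in LacZ-positive and 81.7 FPKM in LacZ-negative cells (-0.43, or -0.26 relative to all genes). Both were thus on the lower side in each pair, and both were inside the line here. Igfbp2 ran the other way, at 2.37 FPKM in LacZ-positive and 1.12 FPKM in LacZ-negative cells. Its log2 difference of 0.67 is compressed by the pseudocount at this low level, and is 1.01 with a pseudocount of 0.1.

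Igf1r stood at 4.31 FPKM in LacZ-positive and 3.92 FPKM in LacZ-negative cells (0.11). Insr stood at 7.04 FPKM in LacZ-positive and 6.31 FPKM in LacZ-negative cells (0.14), and Irs1 at 1.35 FPKM in LacZ-positive and 1.28 FPKM in LacZ-negative cells (0.04). Igf2r stood at 5.75 FPKM in LacZ-positive and 6.29 FPKM in LacZ-negative cells, a difference of -0.11 that turns to 0.06 relative to all genes. The differences of all 4 were smaller than those of each abundant binding protein, except that Insr (0.31) and Igf1r (0.28) passed Igfbp5 relative to all genes.

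Within a library the make-up of the binding proteins does not depend on how libraries are scaled. Igfbp4 made up 3.70% of the summed IGFBP FPKM in the cKO library, against 21.3% in the Het library. It held 30.0% in the LacZ-positive library and 27.6% in the LacZ-negative library, so its share was low in the cKO library and similar across the LacZ pair. Igfbp6 held 16.8% in the cKO and 8.98% in the Het library, and 2.06% in the LacZ-positive and 4.09% in the LacZ-negative library. The ratio of Igfbp3 to Igfbp4 was 10.1 in the cKO and 1.48 in the Het library, and 0.965 in the LacZ-positive and 1.26 in the LacZ-negative library. Igfbp3 and Igfbp7 kept close to each other, with ratios of 0.990, 1.24, 1.06 and 1.33 in cKO, Het, LacZ-positive and LacZ-negative cells.

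**Figure D3:**
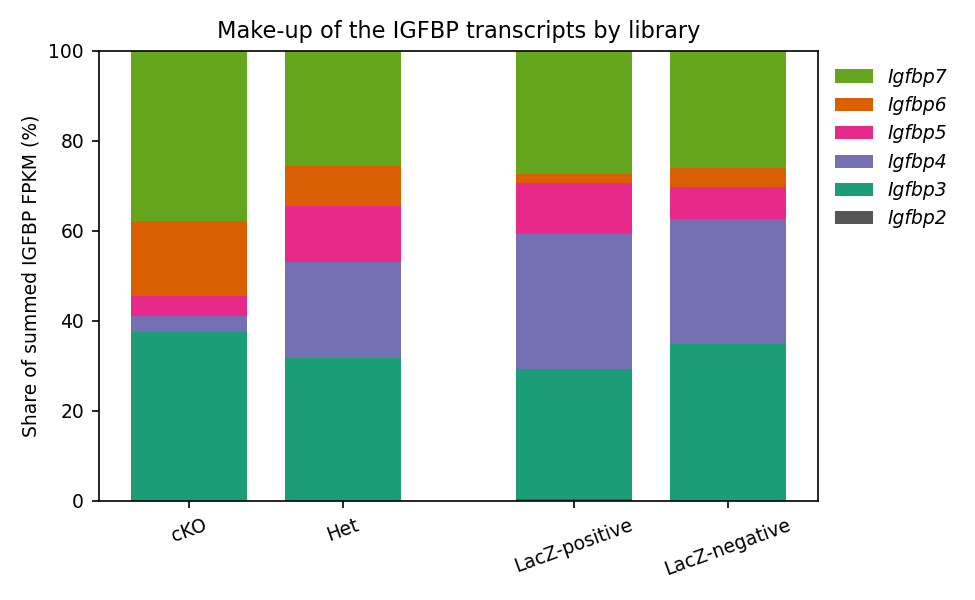
Share of each gene in the summed FPKM of the 6 IGFBP genes, 1 bar per library, with cKO left of Het and LacZ-positive left of LacZ-negative. Igfbp4 holds 3.70% in the cKO bar and 21.3% to 30.0% in the other bars, and Igfbp2 at 0.442% or less is barely visible.

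The order of levels followed from this. Igfbp7, Igfbp3, Igfbp6, Igfbp5 and Igfbp4 ran from high to low in the cKO library. The order was Igfbp3, Igfbp7, Igfbp4, Igfbp5 and Igfbp6 in the Het library. It was Igfbp4, Igfbp3, Igfbp7, Igfbp5 and Igfbp6 in LacZ-positive and Igfbp3, Igfbp4, Igfbp7, Igfbp5 and Igfbp6 in LacZ-negative cells. With no replicates it is unknown whether neighbours such as Igfbp7 and Igfbp3 in the cKO library (158 and 156 FPKM) differ. Igfbp3 was among the most abundant transcripts: only 554 genes in the cKO, 834 in the Het, 538 in the LacZ-positive and 273 in the LacZ-negative library had a higher FPKM. Igfbp6 was passed by 1309 genes in the cKO and 3258 in the Het library, and by 7002 in the LacZ-positive and 2313 in the LacZ-negative library.

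Igfbp6 was high in the cKO library and low in LacZ-positive cells, and the genes nearest it in these differences are named here. Since Igfbp6 was chosen by those same differences, the number of genes near it is a description only. Likeness was the distance between 2 genes in the plane of the 2 log2 differences, over 8337 other genes at 5 FPKM or more in each pair and above 0 in all 4 libraries. It rests on 2 numbers per gene and says nothing of shared control. The nearest were Hpgd, which breaks down prostaglandins (distance 0.27), Cyp26b1, which breaks down retinoic acid (0.32), Myoc (0.39), S100a4 (0.39), a calcium-binding protein, and Angptl7 (0.47). Hpgd stood at 101 FPKM in the cKO and 46.5 FPKM in the Het library, and at 11.8 FPKM in LacZ-positive and 43.0 FPKM in LacZ-negative cells. Within 0.5 of Igfbp6 lay 7 genes, while 1 lay that close to Igfbp4, 38 to Igfbp5, 67 to Igfbp7 and 68 to Igfbp3. A gene with wide differences has fewer genes around it, so nothing is read from these counts. The gene nearest Igfbp4 was Rpl35, at 0.45, and after it Gdf10, at 0.58. Igfbp6 was 1 of 15 genes in the ranked set of 8338 that were higher in the cKO library and lower in LacZ-positive cells by 2-fold or more each. Another 18 were lower in the cKO library and higher in LacZ-positive cells, 2 were higher in both and 0 lower in both. Opposite directions were thus usual among genes past both lines and not particular to Igfbp6.

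**Figure D4:**
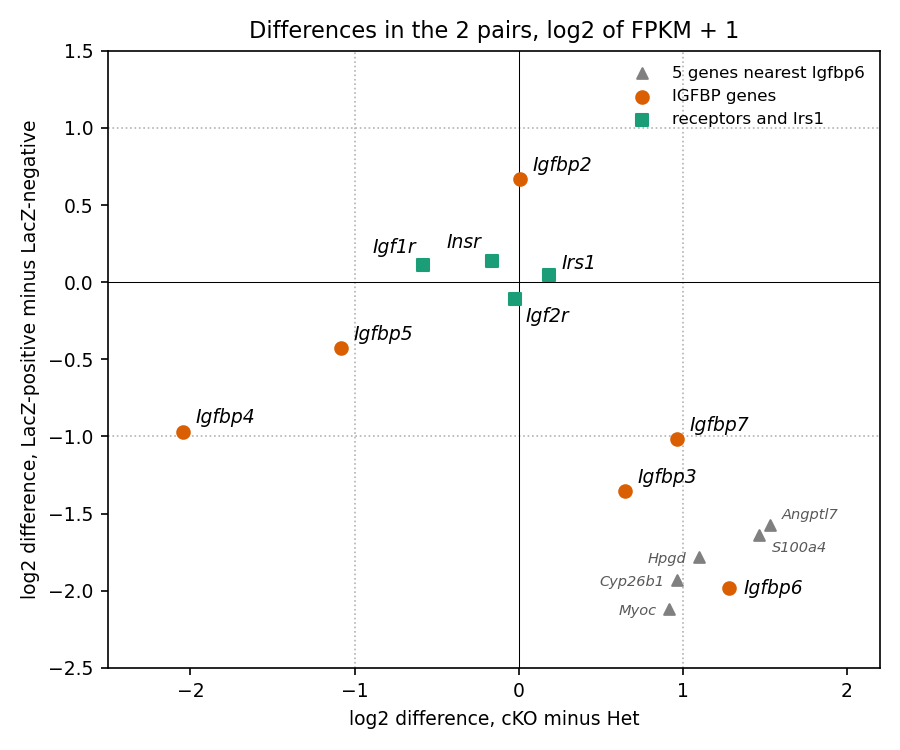
Log2 difference of FPKM + 1 in the LacZ pair against that in the cKO and Het pair, for the 10 genes and the 5 genes nearest Igfbp6; dotted lines are the 2-fold lines. Igfbp6 sits at 1.28 and -1.98 in the lower right, Igfbp4 at -2.05 and -0.97 in the lower left, and the receptors and Irs1 lie near the centre.

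The keratins Krt6a and Krt6b, known from the inner bulge and companion layer, are 2 of the 15 genes past the line upward in the cKO library and downward in LacZ-positive cells, and they were picked after their values were seen. Krt6a stood at 415 FPKM in the cKO and 168 FPKM in the Het library, and at 170 FPKM in LacZ-positive and 480 FPKM in LacZ-negative cells. Krt6b stood at 44.7 FPKM in the cKO and 17.4 FPKM in the Het library, and at 19.8 FPKM in LacZ-positive and 52.0 FPKM in LacZ-negative cells. Of the 9 bulge stem cell markers 0 passed the line in the cKO and Het pair, with a median log2 difference of 0.25. In the LacZ pair Cd34 was lower by 2-fold or more (-1.21), Krt15 was the gene listed at 0, and the median was -0.26. That median counts Krt15 as higher (12.5), though its 0 may be a failed estimate. Lhx2 (-0.74), Krt5 (-0.61), Sox9 (-0.52) and Tcf7l1 (-0.26) lay on the lower side as well. Krt14 (0.32), Nfatc1 (0.09) and Itga6 (0.05) lay on the higher side there. The part of such cells in the IGFBP values was not tested. Dermal cells are rich in several IGFBPs, so their markers are given as well. Of 9 fibroblast and dermal papilla markers, 3 reached 1 FPKM in each of the cKO, Het and LacZ-negative libraries and 4 in the LacZ-positive library. Their summed level was 24.3 FPKM in the cKO and 17.8 FPKM in the Het library, and 17.4 FPKM in LacZ-positive and 20.1 FPKM in LacZ-negative cells. Pdgfra, a defining fibroblast receptor, was at 0.204 FPKM or less, Col3a1 at 0.131 or less, and Lum was listed at 0 in the Het and LacZ-positive libraries. The markers that did reach 1 FPKM differed in opposite directions. Col1a1 stood at 10.3 FPKM in the cKO and 3.72 FPKM in the Het library, and at 6.29 FPKM in LacZ-positive and 13.1 FPKM in LacZ-negative cells. Col1a2 lay on the same sides, at 12.5 FPKM in the cKO and 10.8 FPKM in the Het library (0.19). In LacZ-positive cells Col1a2 had 2.38 FPKM, against 4.34 FPKM in LacZ-negative cells (-0.66). Vim stood at 1.05 FPKM in the cKO and 3.05 FPKM in the Het library, and at 6.12 FPKM in LacZ-positive and 1.82 FPKM in LacZ-negative cells. Dcn was under 1 FPKM in the cKO and Het libraries, and at 2.16 FPKM in LacZ-positive and 0.423 FPKM in LacZ-negative cells. In the LacZ pair 2 of the 4 tested markers (Vim and Dcn) were thus higher by 2-fold or more and 0 lower. In the cKO and Het pair 1 of 3 (Col1a1) was higher and 0 lower. Over all genes 7.27% and 4.09% differed by as much in these pairs, in either direction. Col1a1 in the LacZ pair (-0.95) and Vim in the cKO and Het pair (-0.98) lay just inside the line. Without the pseudocount these were 2.08-fold and 2.90-fold lower, so the counts are not read as a lean of dermal markers. No endothelial marker of 5 reached 1 FPKM, with sums of 0.337 to 1.12 FPKM and 2 markers (Cdh5 and Emcn) at 0 in the cKO library. The 5 muscle, pericyte and adipocyte markers summed to 0.466 FPKM at most. The 5 leukocyte markers summed to 8.39 FPKM in the cKO and 5.07 FPKM in the Het library, and to 4.85 FPKM in LacZ-positive and 3.45 FPKM in LacZ-negative cells. The 5 melanocyte markers summed to 2.22 FPKM in the cKO and 3.41 FPKM in the Het library, and to 19.7 FPKM in LacZ-positive and 14.8 FPKM in LacZ-negative cells.

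Few other genes of the pathway were past the line. Of 68 further pathway genes in 7 lists, 47 reached 1 FPKM in each pair. In the cKO and Het pair 1 was higher and 1 lower by 2-fold or more, beside 4.09% of all genes in either direction, and the median log2 difference was 0.05, against 0.06 over all genes tested. In the LacZ pair 1 was higher and 0 were lower, beside 7.27% of all genes, with a median of -0.03, against -0.13 over all genes tested. Counts this small do not set the pathway apart from other genes.

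Of 9 listed secreted proteins with an IGFBP-like domain 5 reached 1 FPKM in each pair and 1 of them was past the line, beside 4.09% and 7.27% of all genes, with medians of 0.21 in the cKO and Het pair and -0.08 in the LacZ pair. Cyr61, a matricellular protein and early-response gene, stood at 618 FPKM in the cKO and 210 FPKM in the Het library (1.55). Cyr61 had 38.8 FPKM in LacZ-positive and 24.1 FPKM in LacZ-negative cells (0.66). Its relative Ctgf stood at 773 FPKM in the cKO and 719 FPKM in the Het library, and at 53.5 FPKM in LacZ-positive and 79.6 FPKM in LacZ-negative cells. Htra1, a serine protease that can cleave IGFBPs, stood at 31.6 FPKM in LacZ-positive and 15.2 FPKM in LacZ-negative cells (1.01), in an interval shared by 41 entries. It fell inside the line with a pseudocount of 5, and was not counted among genes alone in their interval, so that 0 of the list passed under either setting. Htra1 stood at 69.9 FPKM in the cKO and 57.8 FPKM in the Het library (0.27), and Kazald1 stood at 2.46 FPKM in the cKO and 3.55 FPKM in the Het library (-0.40).

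Of 10 IGFBP proteases and their inhibitors, 2 reached the minimum in the cKO and Het pair and 3 in the LacZ pair. Of these 0 passed the line, beside 4.09% and 7.27% of all genes, so nothing is read from that count. With a pseudocount of 0.1 the count was 1 in each pair, and when centred it was 1 in the cKO and Het pair, where Pappa came to -1.03. The list's medians, over 2 and 3 genes, were -0.57 and -0.34, and ranged up to 0.76 in the LacZ pair with a minimum of 5 FPKM. Pappa, the protease that cleaves IGFBP4, stood at 0.621 FPKM in the cKO and 2.16 FPKM in the Het library (-0.96), in the same direction as Igfbp4. Pappa had 1.96 FPKM in LacZ-positive and 2.75 FPKM in LacZ-negative cells (-0.34). Timp3, a metalloproteinase inhibitor, stood at 6.76 FPKM in the cKO and 7.72 FPKM in the Het library (-0.17), and at 8.08 FPKM in LacZ-positive and 4.35 FPKM in LacZ-negative cells (0.76). Timp1 was at 0.276 FPKM in LacZ-positive and 1.13 FPKM in LacZ-negative cells (-0.74). Of the 3 other carriers listed, Igfbpl1 was listed at 0 in all libraries and Igfbp1 stayed at 0.210 FPKM or less. Igfals, the acid-labile subunit that joins the IGFBP3 complex, stood at 1.53 FPKM in the cKO and 1.90 FPKM in the Het library (-0.20), and at 2.52 FPKM in LacZ-positive and 2.55 FPKM in LacZ-negative cells (-0.01).

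Among 13 receptor substrates and adaptors, 11 reached the minimum in the cKO and Het pair and 10 in the LacZ pair, with medians of 0.06 and 0.05. Of these 1 passed the line in the cKO and Het pair and 0 in the LacZ pair, beside 4.09% and 7.27% of all genes. Nothing is read from counts this small. The gene past the line was Grb14, an adaptor that inhibits the insulin receptor. It stood at 4.46 FPKM in the cKO and 10.5 FPKM in the Het library (-1.07). With a pseudocount of 5 no gene of the list passed. Grb14 had 12.5 FPKM in LacZ-positive and 15.01 FPKM in LacZ-negative cells (-0.25) and was among the 5 genes nearest Igfbp5. Socs3, a feedback inhibitor, was at 0.25 in the first pair and 0.24 in the second on the log2 scale, Ptpn11 at 0.15 in the first and Sos1 at 0.12 in the second. Irs2, the other main substrate, stood at 7.81 FPKM in the cKO and 7.39 FPKM in the Het library, and at 7.75 FPKM in LacZ-positive and 7.20 FPKM in LacZ-negative cells. It exceeded Irs1 in every library, by 1.98-fold and 2.21-fold in the cKO and Het libraries and by 5.75-fold and 5.63-fold in LacZ-positive and LacZ-negative cells.

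All 21 PI3K-AKT-FOXO-mTOR genes reached the minimum and 0 passed the line in either pair, beside 4.09% and 7.27% of all genes, so the count of 0 is near the background. The list had medians of 0.09 in the first and -0.03 in the second. Among the wider log2 differences in the cKO and Het pair were those of Mtor (-0.39) and Rptor (0.25). In the LacZ pair they were those of Gsk3a, Foxo3 and Foxo1, each at -0.43 or -0.42. Foxo1, a transcription factor held out of the nucleus by AKT, stood at 14.3 FPKM in LacZ-positive and 19.5 FPKM in LacZ-negative cells. Of 8 genes that act with or are carried by the mannose 6-phosphate receptors, 7 reached the minimum in each pair. Of those 0 passed the line, beside 4.09% and 7.27% of all genes, so this count is near the background too. These genes had medians of -0.01 and -0.13, against 0.06 and -0.13 over all genes tested. Their widest differences were those of Gnptg (0.50), Tgfb1 (-0.15) and Gnptab (-0.15) in the first pair and of Gnptg (-0.60), Ctsd (-0.60) and Gnptab (0.37) in the second.

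**Figure D5:**
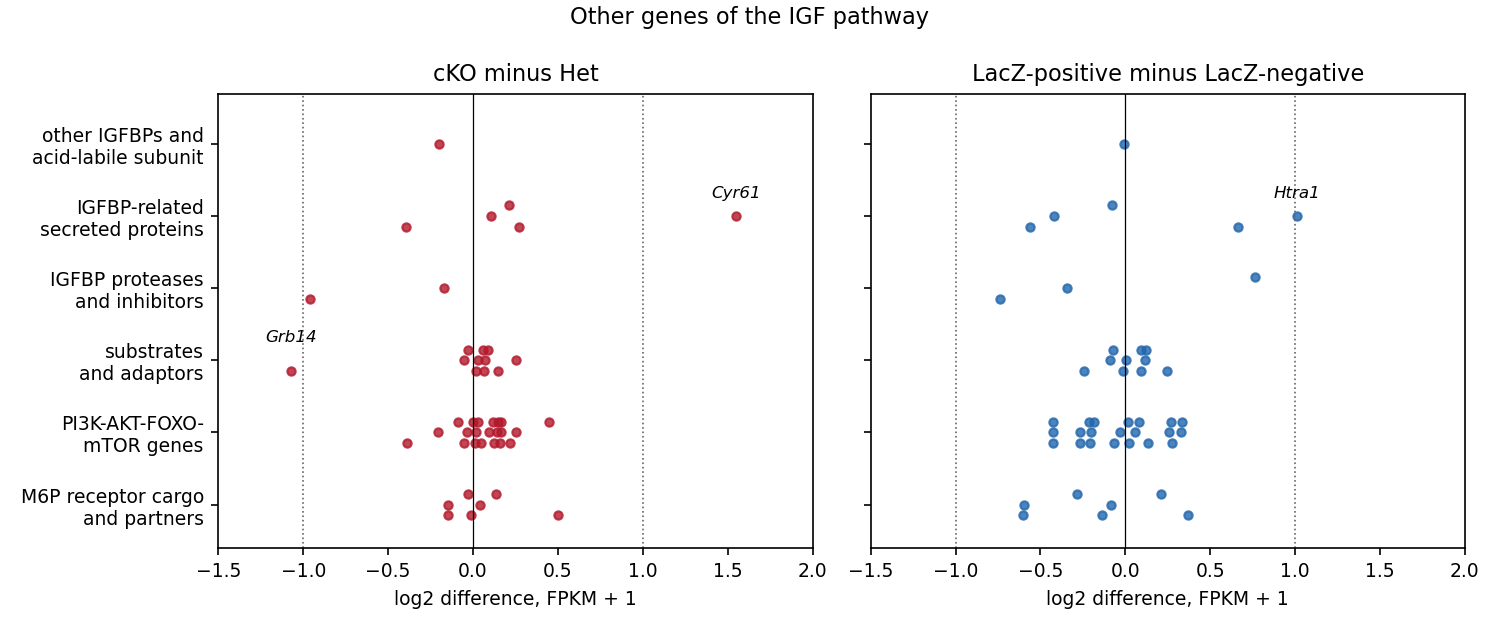
Log2 difference of FPKM + 1 for the pathway genes at 1 FPKM or more, by list, cKO minus Het on the left and LacZ-positive minus LacZ-negative on the right; points are genes, spread vertically for clarity, and dotted lines are the 2-fold lines. Cyr61 (1.55), Grb14 (-1.07) and Htra1 (1.01) are the genes past a line, and the ligand list is not drawn because no member reached 1 FPKM.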

How the data were processed

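Of the series' samples, the 4 RNA libraries were used, 1 per group as the labels give it. The authors deposited their values as FPKM, per the file headers, in 2 gene tables, 1 per pair, with 32091 rows each; the first also holds the authors' log2 fold change of cKO over Het. The submitters' processing notes list Cufflinks 2.1.1, TopHat2 2.0.4 and TopHat, and the builds GRCm38 and mm9, with no role for either; the settings are not stated. Table coordinates were taken as mm9, since on chromosome 7 they reach 152509964, past the last GRCm38 gene end of 145324059. FPKM divides by a library total, so abundant features can shift all values: mt-Ts1 held 20.6% to 28.1% of a library's summed FPKM. Depth is unknown.

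Rows of a symbol were summed, and 25 symbols turned into dates were restored through their identifiers. Differences are log2 of FPKM + 1 at a minimum of 1 FPKM in a library of the pair, a scale that understates changes at low levels. There is no test. The counting step was tested on simulated data, a library set against its own copy with known folds planted. That checks the arithmetic only and says nothing of how far unreplicated libraries differ. All 10 genes are named, as are the ligands and the 3 largest differences of each of 7 pathway lists per pair, and the 5 genes nearest Igfbp6; 1 gene that this rule names is not reported here. Genes and lists were chosen with earlier results of these data known, and TATAAA and GGGCGG were added after the data were seen. Counts past the line, the members' differences and the pathway list counts and medians were recomputed under 8 other settings and 2 more chosen after seeing the data, where the gene passed the minimum; shares, ratios, ranks, distances and marker sums were not. Python 3.11.15, pandas 2.3.3 and numpy 2.4.6 were used. Promoter sequences are from RefSeq.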

Additional observations from a re-analysis of the deposited data

How the results depend on the processing

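Of 177 recomputed member differences, 172 kept their side of the 2-fold line or stayed inside it, and 2 of the 177 changed sign. Each member has 1 row, so settings that only drop genes or take the highest row leave its value as it was. Only the other pseudocounts, centring and upper-quartile scaling could change a member's difference. The 172 thus include values that could not move, and are not read as a measure of stability. A pseudocount of 5 put Igfbp5 at -0.95 in the cKO and Het pair, which left 1 gene of the 10 lower there. In the LacZ pair Igfbp7 came to -0.999 with a pseudocount of 5, -0.85 when centred and -0.88 with upper-quartile scaling, all inside the line. A pseudocount of 0.1 put Igfbp2 at 1.01, so that 1 gene was higher. Igf2r changed sign when centred and with upper-quartile scaling (0.06 and 0.01). Pathway list medians, some over 1 to 3 genes, changed sign in 15 of 118 recomputations. The background counts moved more. In the cKO and Het pair, where 532 genes differed (234 higher, 298 lower), they were 303 (144 and 159) with a pseudocount of 5 and 234 (96 and 138) without small RNA, Gm and Rik symbols. They were 247 (112 and 135) with only genes alone in their interval, and 335 (140 and 195) without genes listed at 0. In the LacZ pair, where 966 differed (620 higher, 346 lower), they were 460 (282 and 178) with a pseudocount of 5, 593 (398 and 195) without those symbols and 496 (321 and 175) with genes alone. Lower genes were 528 with a pseudocount of 0.1 and 224, beside 804 higher, when centred. The causes were not tested beyond the fewer genes that some settings leave. No paired analysis was possible because each group has 1 library. For the same reason no library could be left out.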

Other observations

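Other genes with IGF in their name were looked up after the data were seen. Igfl3, a member of the IGF-like family, stood at 0.138 FPKM in the cKO and 0.0666 FPKM in the Het library, and at 1.96 FPKM in LacZ-positive and 0.349 FPKM in LacZ-negative cells. Tmem149, named Igflr1 in the reference gene names and known as a receptor of IGF-like proteins, ran the other way in the LacZ pair, at 0.587 FPKM in LacZ-positive and 3.37 FPKM in LacZ-negative cells, in an interval shared by 3 entries. It stood at 1.49 FPKM in the cKO and 0.662 FPKM in the Het library. The RNA-binding proteins Igf2bp1 and Igf2bp2 stayed under 1 FPKM in all 4 libraries. Igf2bp3 stood at 0.150 FPKM in the cKO and 0.112 FPKM in the Het library, and at 1.10 FPKM in LacZ-positive and 0.483 FPKM in LacZ-negative cells.

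Levels of Igfbp4 stood apart between the pairs as well, at 15.4 and 66.9 FPKM in the cKO and Het libraries and at 161 and 315 FPKM in LacZ-positive and LacZ-negative cells. Age, sex, strain and genotype all differ between these pairs and cannot be told apart.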
